A study of Mus musculus with 5 samples.

Results

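Expression of 10 genes of the interleukin 1 axis and the NF-kB pathway was examined in NT2.5 cells, a mouse mammary tumour line driven by the neu oncogene, and in its bone and liver sub-lines. The genes are Il1a, Il1b, Il1rn, Tnf, Cd14, Tlr2, Relb, Nfkbia, Tnfaip3 and Birc3, and they were taken by symbol from the annotation of the Affymetrix Mouse Genome 430 2.0 array. They make up 10 of the 18193 genes annotated, with 18 probe sets of 34945, and all 10 were among the 12609 genes that passed a filter on dim signal. Il1a passed it through its parental value alone. The 5 arrays held 1 sample each, namely bone passage 3 (early), bone passage 6 (final), liver passage 1 (early), liver passage 3 (final) and the parental cells, which the labels call wild type. The bone and liver sub-lines are labelled with a metastatic preference for bone or for liver, and the parental cells with one for bone, liver and lung. Each sub-line is 1 lineage, the labels do not say whether it is a clone, and all 5 samples share the NT2.5 background.

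Interleukin 1 alpha and beta are secreted alarm signals that act through the same receptor, and the interleukin 1 receptor antagonist, made from Il1rn, occupies that receptor without activating it. Interleukin 1, TNF and ligands of the Toll-like receptors all lead to the IkB kinases, which free NF-kB dimers to enter the nucleus. NF-kB then switches on its own brakes, among them the inhibitor IkB-alpha (Nfkbia) and the ubiquitin-editing protein A20 (Tnfaip3), as well as survival genes such as Birc3. In tumour cells that lodge in bone or liver, these cytokines are known as a means of signalling to resident and recruited cells.

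A probe set's signal is a fluorescence intensity on a linear scale with no fixed unit, and levels are compared here only within a probe set. A difference is given on the scale of log2(intensity + 16), which understates the change of dim genes, and a gene is called where its limma adjusted p, with Benjamini-Hochberg adjustment over all 12609 genes, is under 0.05. Since each sub-line has its passages in place of replicates, a p-value here rests on how far its passage arrays differ. Passage and array-to-array variation cannot be told apart in that spread, which limma also draws toward the spread of all genes. Variation between independently derived sub-lines is not covered. The labels do not say whether a passage was through mice or in culture. Having 5 arrays limits the precision. The median intensity of all probe sets lay between 21.9 and 26.4 on the 5 arrays, and arrays of different lines correlated across genes at Pearson's r of 0.953 to 0.967, against 0.979 between the bone passages and 0.973 between the liver passages. Of 10 markers of mammary epithelium, the labelled cell type, 9 exceeded the overall median signal (25.1) on all 5 arrays, and Krt19 was between 1.5 and 3.3. With bulk RNA, fewer cells of a type and less RNA per cell cannot be told apart.

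The genes did not move as a block, and limma called 0 of the 10 in any of the 3 comparisons of lines. It called 0.135% of all genes for bone against parental, 0.0159% for liver against parental and 0.190% for bone against liver. At an unadjusted p under 0.05, Il1a, Il1rn and Tlr2 were lower in bone than in parental cells (3 of 10, against 4.85% of all genes; 0 were higher, against 3.32%). Il1rn was lower in liver than in parental cells (1 of 10, against 3.42%; 0 were higher, against 4.08%). Between the sub-lines Il1a, Birc3 and Tlr2 were lower in bone (3 of 10, against 9.05%) and Cd14 was higher (1 of 10, against 5.03%). By order of the arrays alone, both bone passages were below the parental array for 9 genes (37.7% of all genes) and above it for Cd14 (33.5%). Both liver passages were below it for 6 genes (32.8%) and above it for Birc3 and Relb (35.2%). Both bone passages were above both liver passages for Cd14 (21.2%) and below them for Il1a, Birc3, Relb and Tlr2 (25.9%). Each gene is counted here by 1 probe set. Some other probe sets of Nfkbia, and a dim one of Birc3, were above the parental array in both bone passages. The log2 range over the 5 arrays reached 1 for 6 of the 10 genes and for 17.2% of all genes. Il1a entered through the parental cells, where it is high, so that its place in these counts is no support. Without it, 9 genes remain: 2 at an unadjusted p under 0.05 and lower in bone than in parental cells, 2 lower in bone than in liver, 8 below parental in both bone passages, 3 below liver in both, and 5 with a log2 range of at least 1. The plot of levels by array shows 3 kinds of pattern. Il1a, Il1b, Il1rn, Tnf and Tlr2 had their highest value in the parental cells, 5 of 10 (4 of 9 without Il1a) where 18.1% of all genes did, and Tlr2 did so by a narrow margin. Birc3 and Relb peaked in liver passage 1 and Cd14 in bone passage 6, and Nfkbia and Tnfaip3 showed no common order of the lines.

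**Figure D1:**
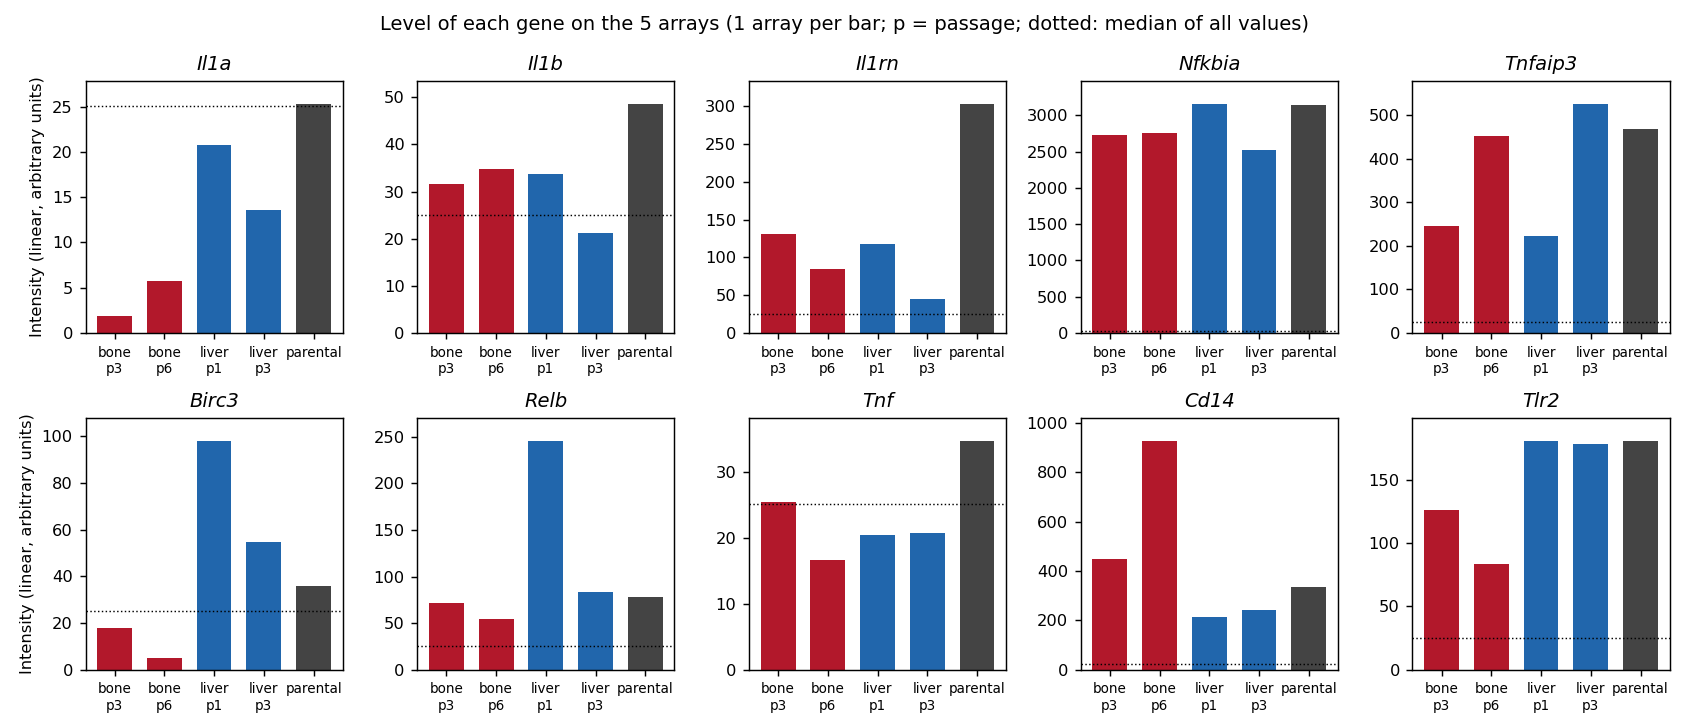
Intensity (linear scale, arbitrary units) of the probe set that stands for each of the 10 genes; each bar is 1 array, ordered as bone passages 3 and 6, liver passages 1 and 3, and parental cells, and the dotted line is the median of all values, 25.1. Birc3 and Relb are highest in liver passage 1 (98.2 and 245.8), Cd14 in bone passage 6 (928.2) and Il1rn in parental cells (303.3).

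Among the interleukin 1 genes the receptor antagonist had the widest measured gap to the parental cells in both sub-lines, though neither gap was called and with a pseudocount of 1 that of Il1a was wider in bone. The signal of Il1rn was 131 and 85.2 in bone (passage 3, then 6), 117.6 and 45.1 in liver (passage 1, then 3), against 303.3 in the parental cells. Every sub-line array was at least 2-fold below the parental one. A gap of at least 2-fold in both passages, in either direction, was present for 2.14% of all genes in bone and 1.80% in liver. The log2 difference was -1.39 ± 0.48 for bone minus parental (SE, n = 2 bone arrays and 1 parental array; limma adjusted p = 0.503), a level 2.62-fold lower, and -1.82 ± 0.48 for liver minus parental (limma adjusted p = 0.434), a level 3.53-fold lower. The other probe sets of Il1rn gave -1.09 and -1.05 for bone and -1.31 and -1.46 for liver, so that all 3 probe sets had the same direction. Bone and liver differed by 0.43 ± 0.40 (limma adjusted p = 0.657), within the gap between the liver passages, and without liver passage 3 the sign turned (-0.13).

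Il1a, the cell-associated form of interleukin 1, had intensities of 1.9 and 5.7 in the bone sub-line and of 20.8 and 13.6 in the liver sub-line, against 25.3 in parental cells. All 4 sub-line values lie below the median of all values, and the gene entered the test only through its parental value, which was just above that median. Bone lay below both liver arrays and below the parental array, with log2 differences of -0.74 ± 0.21 against liver (limma adjusted p = 0.223) and -1.07 ± 0.26 against parental (limma adjusted p = 0.305). These values depend on the pseudocount, since the gene is dim: with a pseudocount of 1 they were -2.02 and -2.58, and neither was called. Liver minus parental was -0.32 ± 0.26.

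Il1b, the secreted form that needs cleavage by caspase 1, was dim and changed less. Its intensities were 31.7 and 34.7 in bone and 33.7 and 21.3 in liver, against 48.6 in the parental cells. The bone values lay inside or just above the range of the liver values, and the parental array was above all 4. The log2 differences were -0.39 ± 0.26 for bone minus parental (limma adjusted p = 0.785), -0.59 ± 0.26 for liver minus parental (limma adjusted p = 0.688) and 0.19 ± 0.21 for bone minus liver, which turned to -0.015 without liver passage 3.

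Tnf, which encodes the other major cytokine that feeds into NF-kB, was also dim and highest in the parental cells. It measured 25.5 and 16.7 in bone and 20.5 and 20.8 in liver, against 34.8 in the parental cells, and both sub-lines overlapped fully. Bone minus liver was 0.0074 ± 0.20, with -0.46 ± 0.24 for bone minus parental and -0.47 ± 0.24 for liver minus parental (limma adjusted p = 0.993, 0.705 and 0.749). Only the parental array and bone passage 3 exceeded the median of all values.

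The innate receptors Cd14 and Tlr2 went opposite ways in the bone sub-line. Cd14 encodes a co-receptor that hands bacterial lipopolysaccharide to Tlr4, and it also assists Tlr2. Its signal was 450.2 and 928.2 in bone and 212.2 and 242 in liver, in passage order, against 336 in parental cells. Both bone arrays were above the parental array and both liver arrays below it, an arrangement seen in 5.54% of all genes. Cd14 was 2.73-fold higher in bone than in liver (log2 difference 1.45 ± 0.34, SE, n = 2 arrays per sub-line; limma adjusted p = 0.173). It was called without bone passage 3 (1.96 ± 0.28; limma adjusted p = 0.0361), where the lone bone array is passage 6 and is assumed to vary as the liver passages do. Without bone passage 6 the difference was 0.94 (limma adjusted p = 0.270), so that its size rests on which bone passage is used. Against the parental cells it was 0.91 ± 0.42 for bone (limma adjusted p = 0.654) and -0.54 ± 0.42 for liver (limma adjusted p = 0.832).

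Tlr2, the receptor for bacterial lipoproteins, had 126.3 and 83.6 in bone, against 180.3 and 178.1 in liver. The parental value was 180.9, which the liver values nearly matched. Bone minus liver was -0.71 ± 0.23 (limma adjusted p = 0.255) and bone minus parental -0.73 ± 0.28 (limma adjusted p = 0.570), with both bone arrays below all others. Liver minus parental was -0.013 ± 0.28.

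Relb and Birc3 shared an order of the lines, with both bone arrays below and both liver arrays above the parental cells. This arrangement was present in 8.08% of all genes. Relb encodes the NF-kB subunit of the non-canonical pathway, and its own gene responds to canonical NF-kB. It had 71.9 and 54.8 in bone and 245.8 and 83 in liver, against 78.5 in the parental cells, so that liver passage 1 stood apart and the other 4 arrays lay close together. Bone minus liver was -1.03 ± 0.44 (limma adjusted p = 0.365) and became -0.33 ± 0.24 without liver passage 1 and -1.73 without liver passage 3. Liver minus parental was 0.77 ± 0.54 (limma adjusted p = 0.810), and 0.067 without liver passage 1.

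Birc3 encodes cIAP2, a ubiquitin ligase that restrains cell death downstream of TNF receptors and holds the non-canonical pathway in check. It had 17.8 and 5 in bone and 98.2 and 54.6 in liver, against 36 in parental cells. Birc3 was at least 2-fold apart in all 4 bone and liver pairs, the only such gene of the 10, where 1.06% of all genes were. The level was 3.37-fold lower in bone than in liver (log2 difference -1.75 ± 0.33; limma adjusted p = 0.127). Both bone values lie below the median of all values, and the size depends on the pseudocount and the probe set: it was -2.81 with a pseudocount of 1, -0.88 with one of 64 and -1.08 with averaged probe sets, none of them called. Leaving out 1 sub-line array at a time gave -1.41 to -2.10, with no call. Birc3 was called when each array was centred on the median of all its probe sets (-1.71; limma adjusted p = 0.0363) and not when it was centred on the median of the genes tested (-1.68; limma adjusted p = 0.0873). A fit that adds passage stage as a block, given in the closing section, also called Birc3 and Cd14. Against the parental cells the differences were -0.96 ± 0.40 for bone (limma adjusted p = 0.608) and 0.79 ± 0.40 for liver (limma adjusted p = 0.745). A second probe set of Birc3 did not reach the median of all values on any array (highest value 14.2) and gave 0.32 for bone minus liver, so the direction rests on 1 probe set.

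**Figure D2:**
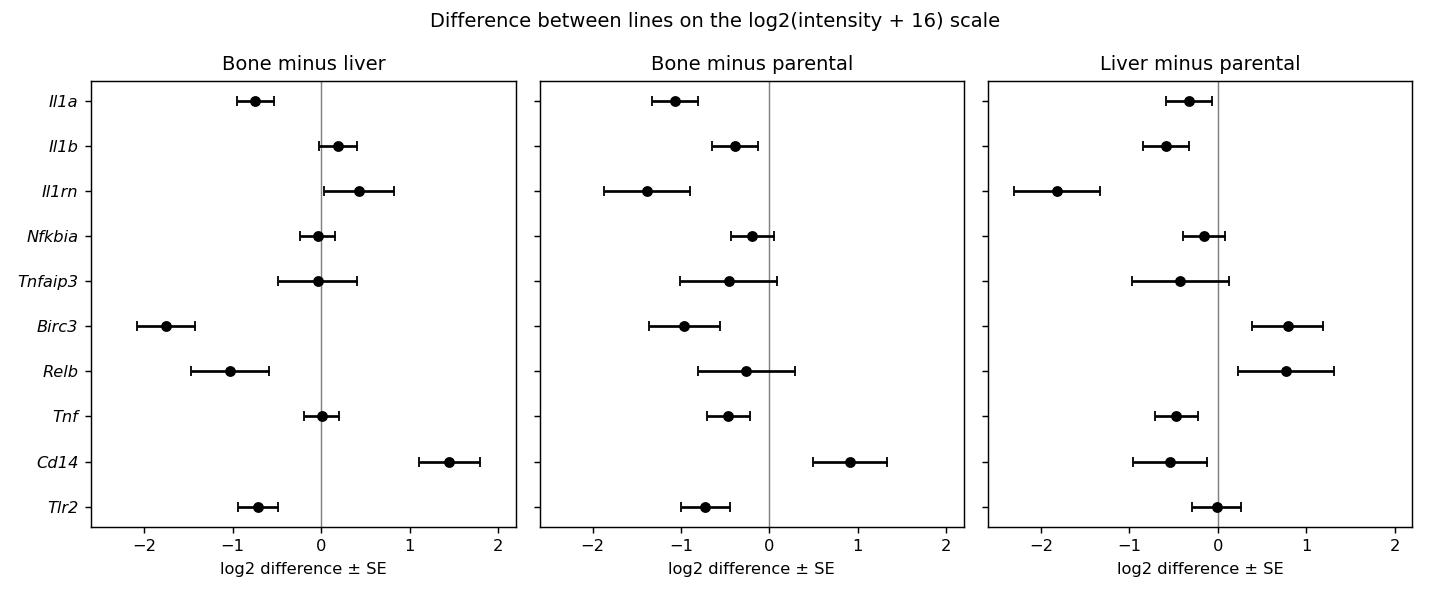
Log2 difference (x axis, log2(intensity + 16) scale) with its SE from the limma fit for each of the 10 genes, for bone minus liver, bone minus parental and liver minus parental (n = 2, 2 and 1 arrays for bone, liver and parental). Birc3 has the most negative bone minus liver value (-1.75) and Cd14 the most positive (1.45), and Il1rn is farthest below 0 in both comparisons with the parental cells.

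Markers of macrophages and monocytes, cells that express most of these genes, were summed. Like Relb and Birc3, the sum was highest in liver passage 1 and lower in bone than in liver. Unlike them, it was not below the parental sum in bone. The summed intensity of the 22 annotated markers was 525.7 and 430 in bone and 1046.9 and 729.1 in liver, against 393.5 in parental cells. Most of the excess of liver passage 3 over bone passage 3 came from Cd68 and Csf1r. They had 172 and 220 in liver passage 3, against 103.2 and 89.3 in bone passage 3. Fcgr1, Fcer1g, Laptm5 and Itgam were highest in bone passage 3. Of these markers 7 and 4 reached the median of all values in bone and 13 and 6 in liver, against 7 in parental cells. The highest value was in liver passage 1 for 13 of 22, where it was for 24.7% of all genes tested. The complement gene C1qa was at 56.1 in liver passage 1 and between 0.9 and 1.2 on the other 4 arrays. Clec4f, a Kupffer cell marker, was at 12.7 and 16.9 in liver and 1 and 8.9 in bone, against 5 in parental cells. It was thus highest in liver, with all values below the median of all values. Of the 14 markers tested, limma called 0 for bone against liver, with 5 at an unadjusted p under 0.05, all lower in bone (9.05% of all genes). Against parental cells 9 of those 14 were higher in bone and 13 in liver, where 52.3% and 48.3% of all genes were lower. There, limma called 0 in either, with 0 and 3 higher at an unadjusted p under 0.05 (3.32% and 4.08% of all genes). Fcgr3, Tyrobp, C1qa, C1qb, C1qc, Cd52 and Ptprc passed the filter only through liver passage 1, where they are high. Their place in these counts is therefore no support. The part of such cells in the Relb and Birc3 values was not tested. For Cd14, a macrophage gene too, the order was the reverse, with the higher values in bone, where the summed markers were lower than in liver. The part of such cells in the Cd14 values was not tested either. Neutrophil markers summed to 438.7 and 299.4 in bone and 166.3 and 410.5 in liver, against 441.8 in parental cells. Most of this sum was S100a8, with 319.7 and 203.9 in bone and 95.9 and 301.9 in liver, against 336.8 in parental cells. Of the 8 neutrophil markers, 4 reached the median of all values on any array. Fibroblast markers summed to 165.3 and 146.1 in bone and 253.2 and 236.4 in liver, against 257.9 in parental cells. Pdgfra was the largest part on every array, and 3 of the 8 markers reached the median on any array. Endothelial markers summed to 231.8 and 131.1 in bone and 268.6 and 255.2 in liver, against 292.1 in parental cells. Most of this sum was Flt1 and Kdr, the only 2 of the 6 markers that reached the median on any array. These sums thus rest on few genes and are no measure of cell content. Of 7 lymphocyte, 6 hepatocyte and 3 osteoblast markers annotated, 1 each reached the median of all values on any array.

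**Figure D3:**
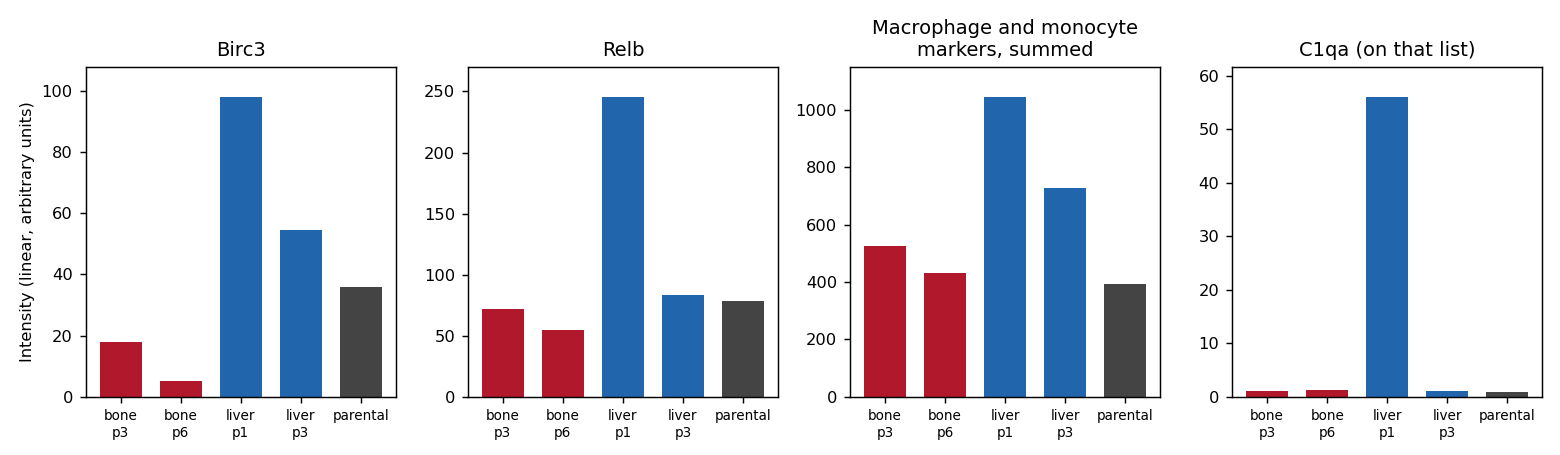
Intensity (linear scale, arbitrary units) of Birc3 and Relb beside the summed intensity of 22 macrophage and monocyte markers and the level of the marker C1qa; each bar is 1 array. All 4 panels are highest in liver passage 1, with 98.2, 245.8, 1046.9 and 56.1. Of the 22 markers, 13 were highest on that array, as were 24.7% of all genes tested.

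The feedback genes Nfkbia and Tnfaip3 did not separate the lines. Their promoters are shown because NF-kB acts on them directly, beside those of Tlr2, the other gene of the set with a match, and of Birc3, which had the widest measured gap between the sub-lines at the pseudocount used. With a pseudocount of 64 or averaged probe sets the gap of Cd14 was wider. Sequences are the 250 bases before a RefSeq start site (GRCm38.p6), 5′ to 3′ on the gene's strand. Matches to the 10-base kappaB consensus on either strand are in capitals.
Nfkbia, chr12:55492648-55492897, minus strand: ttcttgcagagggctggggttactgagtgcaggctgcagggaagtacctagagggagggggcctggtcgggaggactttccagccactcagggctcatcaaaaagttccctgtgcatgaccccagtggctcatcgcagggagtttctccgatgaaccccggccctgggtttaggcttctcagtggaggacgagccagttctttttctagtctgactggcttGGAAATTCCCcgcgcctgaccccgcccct
Tnfaip3, chr10:19015411-19015660, minus strand: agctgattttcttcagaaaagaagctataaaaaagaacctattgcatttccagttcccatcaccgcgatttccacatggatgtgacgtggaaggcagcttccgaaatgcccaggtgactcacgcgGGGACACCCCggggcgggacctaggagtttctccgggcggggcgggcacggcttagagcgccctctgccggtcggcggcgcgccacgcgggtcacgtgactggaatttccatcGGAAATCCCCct
Tlr2, chr3:83841609-83841858, minus strand: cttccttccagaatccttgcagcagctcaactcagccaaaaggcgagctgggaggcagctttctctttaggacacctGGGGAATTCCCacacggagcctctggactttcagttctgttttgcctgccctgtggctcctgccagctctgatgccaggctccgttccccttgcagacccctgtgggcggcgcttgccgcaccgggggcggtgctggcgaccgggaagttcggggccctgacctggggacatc
Birc3, chr9:7873171-7873420, minus strand: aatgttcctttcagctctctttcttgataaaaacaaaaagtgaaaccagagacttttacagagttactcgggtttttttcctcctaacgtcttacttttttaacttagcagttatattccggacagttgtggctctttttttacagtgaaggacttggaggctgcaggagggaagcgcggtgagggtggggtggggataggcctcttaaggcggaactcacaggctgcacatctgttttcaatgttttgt

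A kappaB match was found for 3 of the 8 genes searched (all but Cd14 and Relb), in 3 of their 11 promoters, and in 3.9% of the 32851 promoters of all genes. Tnfaip3 has a second promoter with no match. The Nfkbia match starts 29 bases before the start site, and the Tnfaip3 matches start 125 and 12 bases before it. The stretch in Tlr2 holds overlapping matches that start 173 and 172 bases before the start site used. The annotated Tlr2 gene extends upstream to base 83841824 and the Birc3 gene to base 7873205, both inside the windows shown. Part of each of these 2 windows, with the Tlr2 matches, thus lies within the annotated gene. A match is a description of the letters in this window and is no measure of binding. The 3 genes with a match had different patterns: Nfkbia varied little, Tnfaip3 was low at the early passages, and Tlr2 was low in bone.

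Nfkbia, which retains NF-kB dimers in the cytoplasm, had 2734.5 and 2756.7 in bone and 3158.2 and 2523.6 in liver, against 3145.4 in parental cells. Its log2 range over the 5 arrays was 0.32, and it differed by -0.04 ± 0.20 for bone minus liver (limma adjusted p = 0.945), -0.20 ± 0.24 for bone minus parental and -0.16 ± 0.24 for liver minus parental. Its 5 probe sets disagreed in sign against the parental cells, from -0.20 to 0.19 for bone and from -0.16 to 0.33 for liver, and none of these values reached a 1.5-fold change.

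Tnfaip3, which removes activating ubiquitin chains from the signal proteins upstream of NF-kB, had 246.5 and 453.5 in bone and 223.8 and 526 in liver, early passage before final, against 467.7 in parental cells. Early passages were low and final passages near the parental level in both sub-lines. Bone minus liver was -0.038 ± 0.45 (limma adjusted p = 0.978), bone minus parental -0.46 ± 0.55 and liver minus parental -0.42 ± 0.55. Leaving out bone passage 3 brought bone minus parental to -0.043, leaving out passage 6 brought it to -0.88, and liver minus parental turned to 0.16 without liver passage 1. The second probe set of Tnfaip3 ran the same way, with 72.6 and 106.3 in bone and 70.8 and 141.3 in liver, against 134.2 in parental cells.

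Between passages there is 1 array a side and hence no test. At bone passage 6, Cd14 was 2.03-fold higher than at passage 3, where 0.357% of all genes were at least 2-fold higher, and 0 of the 10 genes were at least 2-fold lower, where 2.07% of all genes were. At liver passage 3, Tnfaip3 was 2.26-fold higher than at passage 1 (1.68% of all genes were at least 2-fold higher), and Relb and Il1rn were 2.64-fold and 2.19-fold lower (1.13%). Tnfaip3 was also 1.79-fold higher at bone passage 6 than at passage 3. Birc3 was lower at the final passage in both sub-lines, 1.61-fold in bone and 1.62-fold in liver with the pseudocount used. Its intensity fell from 17.8 to 5 in bone, both below the median of all values, and from 98.2 to 54.6 in liver. The pseudocount understates the change of dim genes, so the near-equal folds of Birc3 do not show equal changes. The plot of early and final passages shows that Tnfaip3 and Cd14 were higher, and Birc3, Relb, Il1rn and Tlr2 lower, at the final passage of both sub-lines, while Tlr2 hardly moved in liver (log2 difference -0.016).

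**Figure D4:**
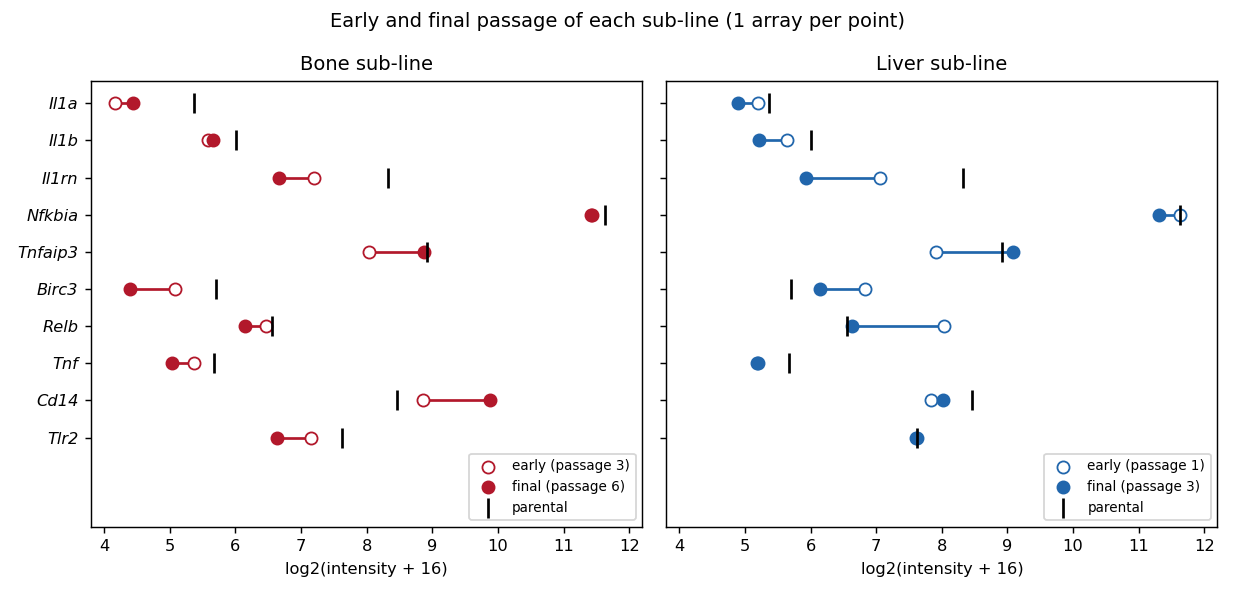
Level of each of the 10 genes (x axis, log2(intensity + 16)) at the early passage (open circle) and the final passage (filled circle) of the bone and the liver sub-line, with the parental level as a black tick; each point is 1 array. The longest line is that of Relb in the liver sub-line (log2 difference -1.40 between passages 3 and 1).

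Passage 3 is the only passage number that the sub-lines share. There, Il1rn was 2.41-fold higher in bone than in liver, and Birc3 and Tnfaip3 were 2.09-fold and 2.06-fold lower, where 2.24% of all genes were at least 2-fold higher and 2.36% at least 2-fold lower. Cd14 was 1.81-fold higher in bone, and Relb 1.13-fold lower. The passages of the liver sub-line alone differed 2.19-fold for Il1rn and 2.26-fold for Tnfaip3.

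The rest of the pathway was read from 7 lists of 83 genes, of which 66 were tested. For bone against liver limma called 0 of the 66. At an unadjusted p under 0.05, 2 were higher and 14 lower (5.03% and 9.05% of all genes). For liver against parental it called 0, with 8 higher and 5 lower at that level (4.08% and 3.42% of all genes). For bone against parental it called 1, the neutrophil chemokine gene Cxcl5 (lower, limma adjusted p = 0.0220). This call depends on the processing. With no filter, and also with a pseudocount of 1, the only gene called of all genes was a higher one, so Cxcl5 was not called. For bone against parental, 6 of the 66 were higher and 8 lower at an unadjusted p under 0.05 (3.32% and 4.85% of all genes). The 10 genes had a median log2 difference of -0.46 for bone minus parental (9 of 10 lower, against 52.3% of all genes), of -0.37 for liver minus parental (8 of 10 lower, against 48.3%) and of -0.039 for bone minus liver (6 of 10 lower, against 52.7%), where the medians of all genes were -0.019, 0.014 and -0.023. Il1a entered the test through its parental value, so its place in these counts and medians is no support. The medians were not recomputed without it. As above, each gene is counted by 1 probe set, and some others of Nfkbia and Birc3 were higher in bone than in parental cells. Both comparisons with the parental cells use the same parental array and are not independent.

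The NF-kB subunits and their kinases had medians of -0.20 for bone minus liver, -0.019 for bone minus parental and 0.18 for liver minus parental over 6 genes. The 12 other feedback genes had medians of -0.36, -0.25 and 0.14 in the same order, with 8 of 12 lower in bone than in liver. Traf1, an NF-kB-induced adaptor of TNF receptors, had 36 and 45.9 in bone and 69.6 and 63.4 in liver, against 2.6 in parental cells (log2 difference 1.61 ± 0.23 for bone minus parental, limma adjusted p = 0.0923, and 2.15 ± 0.23 for liver minus parental, limma adjusted p = 0.106). Traf1 entered the test only through the sub-lines, where it is high, so its differences and its place in the counts above are no support. Interleukin 1 receptors and adaptors had medians of -0.14, -0.040 and -0.037 over 10 genes, and TNF receptors and adaptors of 0.087, -0.076 and -0.083 over 6. Among 8 other ligands and inhibitors of the interleukin 1 family (medians of -0.16, -0.12 and 0.021), the alarmin gene Il33 had 470.3 and 312.9 in bone and 111.6 and 300.5 in liver, against 69.6 in parental cells (bone minus parental 2.22 ± 0.54; limma adjusted p = 0.306). The 9 other Toll-like receptors and partners had medians of -0.062, 0.12 and 0.19. In this list Lbp, which passes lipopolysaccharide to Cd14, had 1184.6 and 556.7 in bone and 859.6 and 650.3 in liver, against 310.1 in parental cells (liver minus parental 1.23 ± 0.45; limma adjusted p = 0.618). The 15 inflammatory target genes, most of them secreted, had medians of -0.11, -0.27 and -0.48, with 11 of 15 lower in each sub-line than in parental cells. Cxcl5 had 126.7 and 112.3 in bone and 163.8 and 135.9 in liver, against 1233.1 in parental cells (log2 difference -3.21 ± 0.24 for bone minus parental, called as above, and -2.92 ± 0.24 for liver minus parental, limma adjusted p = 0.0558). Csf3, the gene of the granulocyte growth factor G-CSF, had 445.8 and 651.9 in bone and 496.7 and 428.1 in liver, against 2027.3 in parental cells (limma adjusted p = 0.109 for bone and 0.174 for liver). The chemokine gene Ccl20 had 90.8 and 121.5 in bone and 560.1 and 257.8 in liver, against 587.9 in parental cells (limma adjusted p = 0.206 for bone minus parental). Cxcl2, another neutrophil chemokine gene, went the other way in liver, with 65.7 and 54 in bone and 118.5 and 49.3 in liver, against 16.3 in parental cells (limma adjusted p = 0.470 for liver minus parental). Like Traf1, Cxcl2 entered the test only through the sub-lines, so the same limit holds.

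**Figure D5:**
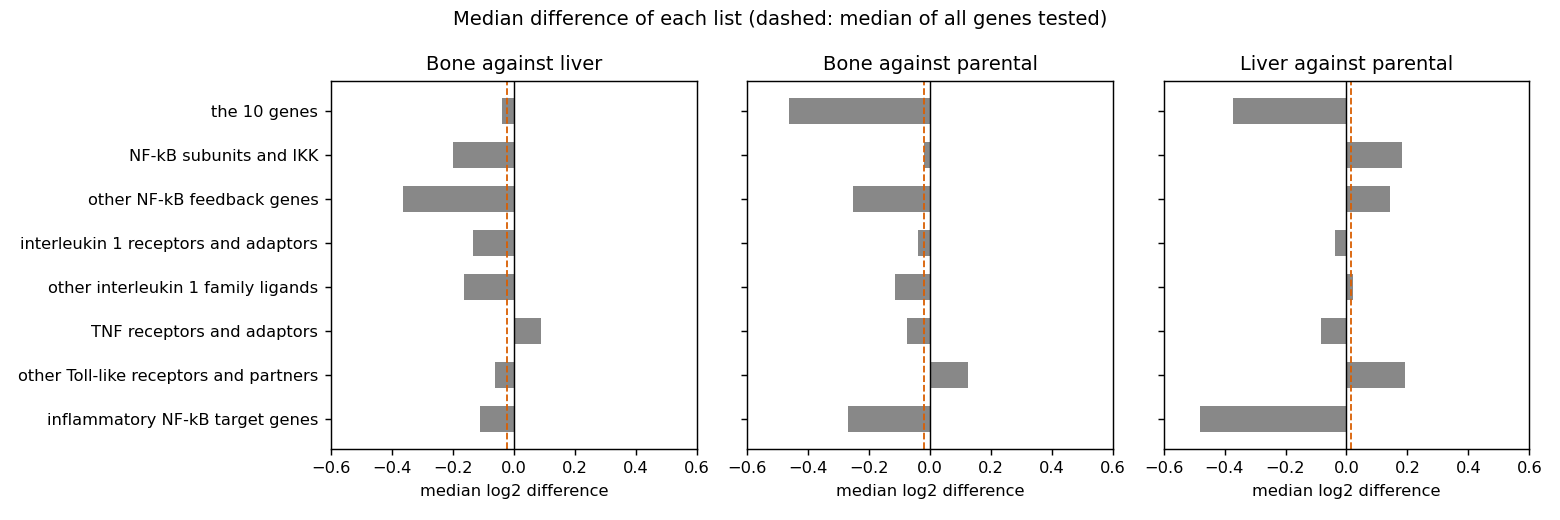
Median log2 difference (x axis) of the 10 genes and of 7 pathway lists for bone against liver, bone against parental and liver against parental; the dashed line is the median of all genes tested. The 10 genes, Il1a among them, stand at -0.039, -0.46 and -0.37.

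Likeness of pattern was measured as the root mean square difference between mean-centred log2 profiles over the 5 arrays, for the 3 genes of the set with the widest range. The closest genes were C1s1, which encodes complement component C1s (0.136), and Tspyl4 (0.219) for Birc3. They were Il17b (0.229) and Tnni1 (0.259) for Il1rn, and Eno3 (0.123) and Hhip (0.178) for Cd14. Within the set, Il1b and Nfkbia were closest (0.167) and Birc3 and Cd14 farthest apart (1.56). With 5 arrays and 12609 genes such matches are a description of these arrays.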

How the data were processed

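RNA of the 5 samples was hybridised to 1-colour Affymetrix arrays. The authors deposited 1 intensity per probe set for 45101 probe sets, on a linear scale. The submitters' processing notes name RMA without a version. The values are not on RMA's log2 scale, and the mean after trimming at both ends was 150 on each array. Depth has no counterpart on an array. Of the probe sets, 34945 had 1 gene in the platform annotation, 932 had several and 9211 were not listed. Symbols were checked by gene identifier against RefSeq (GRCm38.p6), and 0 changed.

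No normalization was added, and tests ran on log2(intensity + 16). Probe sets whose highest value reached the median of all values, 25.1, were kept, and the one with the highest mean log2 value stood for its gene. limma 3.58.1 (lmFit and eBayes, R 4.3.3) was fitted over all 5 arrays with bone, liver and parental as groups, with 2 residual and 4.20 prior degrees of freedom, so the spread of the single parental sample is taken from the sub-lines. The fit was tested on simulated data. The 10 genes and the lists were chosen with earlier results of these data known. All 10 are named, with up to 3 genes per list that were called or whose arrays all differed by 2-fold or more between groups. The plan did not say whether the highest mean was linear or log2, and over which probe sets to centre. The linear mean and centring on all probe sets were run first, and the log2 mean and centring on tested genes were adopted after those results had been seen. Both versions of each are reported in the closing section.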

Additional observations from a re-analysis of the deposited data

Results flagged for a closer look

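Bone and liver stood on opposite sides of the parental array, in both passages each, for 3 genes. Bone was above and liver below it for Cd14, as in 5.54% of all genes. The reverse held for Birc3 and Relb, as in 8.08% of all genes. The log2 difference of bone minus liver was -1.75 for Birc3 (limma adjusted p = 0.127), -1.03 for Relb (limma adjusted p = 0.365) and 1.45 for Cd14 (limma adjusted p = 0.173), and none was called. The change between early and final passage had opposite signs in the sub-lines for 4 genes, and these differences were not tested, since there is 1 array per passage. The share of all genes with opposite signs was not counted. The bone change minus the liver change was 0.59 for Il1a, 0.50 for Il1b, 0.33 for Nfkbia and -0.36 for Tnf on the log2 scale. No group has the 4 arrays that a check for a single outlying array needs.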

How the results depend on the processing

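Over the alternatives, 404 of 421 values of the 10 genes kept their direction and their side of the threshold, 4 became called and 13 changed sign. Many of them could not change direction. Changing the filter, adding the trend or the stage block, or leaving out an array outside the comparison left the difference itself as it was. The 404 is therefore no measure of robustness. With the stage (early or final) as a replicate block over the 4 sub-line arrays, 2 of the 10 genes were called for bone against liver, Birc3 (limma adjusted p = 0.0139) and Cd14 (limma adjusted p = 0.0472), and 161 of all genes. The sources do not say that early and final samples were handled together. Leaving out 1 sub-line array at a time gave 0 to 1 called of the 10 for bone against liver, and 8 to 52 genes in all for bone against parental, 0 to 38 for liver against parental and 0 to 75 for bone against liver, where the reported counts are 17, 2 and 24. Those counts were 1, 1 and 0 with no filter, where more genes are tested, and also with a pseudocount of 1. They were 99, 30 and 130 with each array centred on the median of all its probe sets, where 1 of the 10 genes, Birc3, was called for bone against liver (limma adjusted p = 0.0363). Centring on the genes tested, chosen after those results were seen, gave 37, 6 and 61 and called none of the 10 (Birc3, limma adjusted p = 0.0873). Choosing the probe set by its linear mean, the version run before the one reported, gave 13, 2 and 21 and no call among the 10. A mean-variance trend gave 31, 7 and 52. The count for liver against parental was 5 with a pseudocount of 64, and that for bone against liver 39 with a filter on the mean. Signs that changed belonged to differences within about 1 SE of 0. For bone against liver, without 1 array, Tnfaip3 lay between -0.63 and 0.55 (0.38 without bone passage 3), Nfkbia between -0.20 and 0.12, Tnf between -0.16 and 0.18, Il1b between -0.015 and 0.40 and Il1rn between -0.13 and 1.00. Centring on the genes tested gave 0.035 for Tnfaip3 and 0.033 for Nfkbia, and centring on all probe sets gave 0.0079 and 0.0062, and 0.012 for Tlr2 in liver against parental. For liver against parental the same ranges were -1.01 to 0.16 for Tnfaip3 and -0.32 to 0.0058 for Nfkbia. The number of the 10 genes at least 2-fold apart was 1, 3 and 3 for bone passages 6 and 3, liver passages 3 and 1, and bone and liver at passage 3. It was 3 for the first with a pseudocount of 1 and 2 with centring on all probe sets, 0 for the first and the last with a pseudocount of 64, 0 for the first after quantile normalization, 1 for the last with averaged probe sets, and 0 in all 3 at a 3-fold threshold. The cause was not tested for any of these changes.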

Other observations

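The highest value was in liver passage 1, as for Relb and Birc3, in 3 of the 6 NF-kB subunit and kinase genes tested and in 5 of the 12 other feedback genes, against 24.7% of all genes. This tally was made after the values were seen and has no test. Among them, also picked after their values were seen, Nfkb2, whose product pairs with the protein made from Relb, had 280.5 and 300.3 in bone and 564.3 and 320.4 in liver, against 290.8 in parental cells. Likewise Nfkbie, an inhibitor of the same family as Nfkbia, had 83.7 and 111.3 in bone and 370.9 and 179.6 in liver, against 145.5 in parental cells. Neither was called for bone against liver (limma adjusted p = 0.453 and 0.209), and the part of macrophage markers, whose sum was also highest on that array, was not tested.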
